A study of Mus musculus with 7 samples.

Results

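Chemokines are small secreted proteins that steer moving leukocytes, and the 10 genes described here are chemokines and atypical chemokine receptors followed in single-cell RNA profiles of mouse brain microvessels: the CC ligands Ccl3, Ccl4, Ccl2 and Ccl12, the CXC ligands Cxcl1, Cxcl2, Cxcl10 and Cxcl12, and the receptors Ackr3 and Ccrl2. They were taken by gene symbol, as 10 of the 32285 genes that the feature lists of all libraries share. Single cells were profiled in 7 droplet libraries of untreated C57Bl6 mice: the 12 months group has 3 libraries and the 3 months group has 4. No transgene or deletion is named for any library. Each library held cells that beads against CD31, the endothelial surface protein encoded by Pecam1, had pulled from 1 hemisphere, freed of brain stem, olfactory bulbs and cerebellum and digested with collagenase at 37 °C. The labels do not say whether libraries of a group came from separate animals, so p-values measure only the spread between these libraries, which may be technical. The 12 months libraries were single-indexed and counted with Cell Ranger 4.0.0, and the 3 months libraries were dual-indexed and counted with Cell Ranger 6.1.1, so age, library design, software version and depth cannot be told apart in any age difference below.

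Chemokines are named for the spacing of their first cysteines. CC ligands such as Ccl3, Ccl4 and Ccl2, the last of which binds Ccr2, mainly attract monocytes, macrophages and lymphocytes. Cxcl1 and Cxcl2 attract neutrophils through Cxcr2, Cxcl10 attracts activated T cells through Cxcr3, and Cxcl12 acts through Cxcr4 and is made by endothelial and perivascular cells in many organs. Atypical chemokine receptors bind ligands without the usual G protein signal: Ackr3 takes up Cxcl12 and so shapes its gradients, and Ccrl2 binds chemerin and presents it at the cell surface. Microglia, the resident macrophages of the brain, switch on Ccl3 and Ccl4 quickly when disturbed, tissue digestion included. Endothelial cells change along the vessel from arterial through capillary to venous segments, and pericytes and smooth muscle cells, together the mural cells, wrap the vessel wall.

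The libraries held 8706961 to 44861008 unique molecular identifiers (UMIs, each standing for 1 captured RNA molecule). After filtering, 37351 cells remained, 3799 to 8952 per library, with a median of 1097 to 2781 UMIs per cell at 12 months and 3078.5 to 5344.5 at 3 months. The library 12 months replicate 1 stood apart, with the lowest total and 1366 barcodes below 500 detected genes. Without it, the calls of Ccl2 in capillary, Ccl4 in arterial and Cxcl10 in venous cells described below were lost, and every other call of the 10 genes in the age, class and class by age tests kept its direction and its side of the threshold. In the cells kept, 152 of 37199 barcode sequences occurred in more than 1 library. Clusters were named from marker genes, with the 10 genes kept out of the clustering, and each name below means cells like that type. Endothelial cells made up 29879 of the cells and were split into 22835 capillary, 2975 arterial and 2153 venous cells. Other classes used were microglia (2641 cells), smooth muscle cells (1206) and pericytes (825), and every one of these classes had at least 33 cells in every library. Microglia numbered 973, 90 and 970 in the 12 months libraries and 178, 185, 135 and 110 in the 3 months libraries. Levels are counts per 1000000 UMIs (CPM), from the UMIs summed over the cells of a class in 1 library, and levels of different genes are not compared, since gene length was not taken into account.

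The genes fell into ligands of microglia and genes of the vessel wall. Microglia, 7.07% of the cells, held 81.64% of the 14230 Ccl3 UMIs, 82.32% of the 29098 Ccl4 UMIs, 86.78% of the 4432 Ccl2 UMIs and 87.13% of the 2812 Ccl12 UMIs. Endothelial cells, 80.00% of the cells, held 92.02% of the 339111 Cxcl12 UMIs, 89.69% of the 4997 Cxcl1 UMIs and 80.39% of the 14057 Ackr3 UMIs. The remaining 3 genes were spread wider: endothelial cells held 67.45% of the 2885 Cxcl2 UMIs, 66.40% of the 3816 Cxcl10 UMIs and 68.48% of the 7808 Ccrl2 UMIs, and microglia held 18.97% of Cxcl10 and 14.93% of Ccrl2. Venous cells, 5.76% of the cells, carried 35.24% of Cxcl1, 30.88% of Cxcl2 and 35.53% of Cxcl10. Shares of UMIs also depend on depth, which the shares of cells leave out. The median venous cell had 2.02 times the UMIs of the median endothelial cell, and the median microglial cell 0.691 times those of the median cell. A further 301 cells led by Lyz2, Plac8, Cybb and H2-Ab1 scored alike for monocyte and border macrophage markers and stay unnamed; they were 0.81% of the cells and held 21.35% of Cxcl2.

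**Figure D1:**
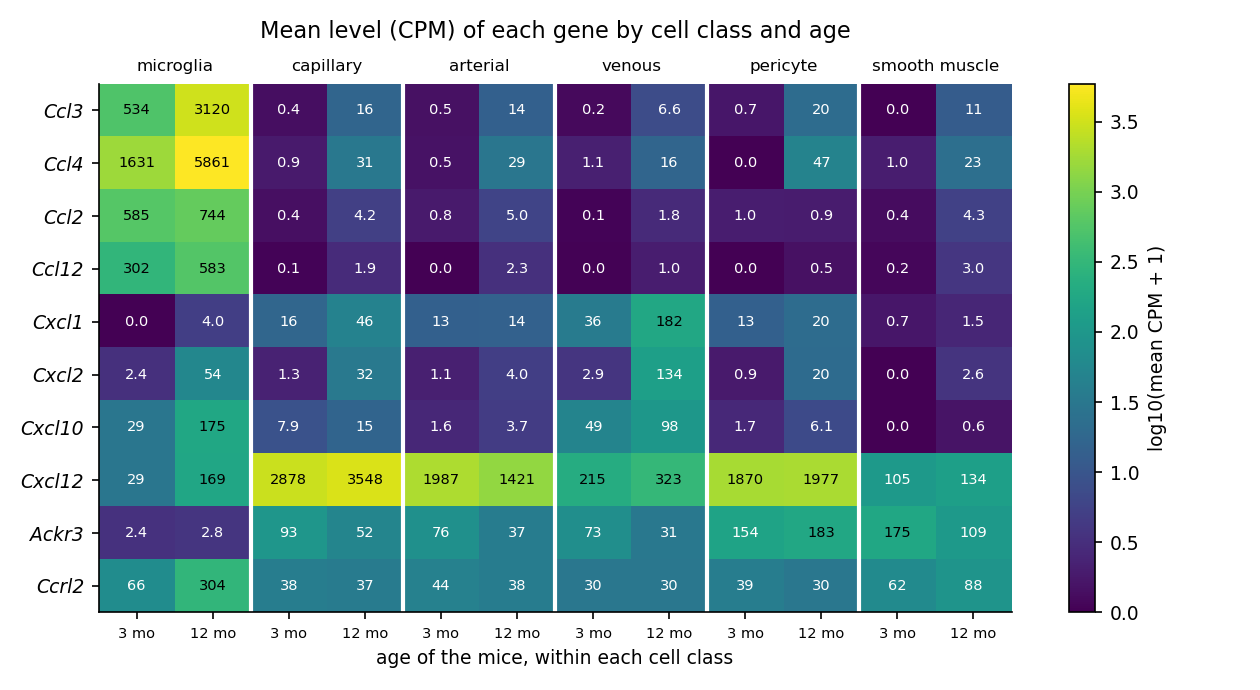
Mean level of each gene (CPM of summed UMIs, log colour scale) in 6 cell classes, for the 3 libraries at 12 months and the 4 libraries at 3 months. Ccl3, Ccl4, Ccl2 and Ccl12 peak in microglia, Cxcl12 in capillary cells, Cxcl1 in venous cells and Ackr3 in pericytes and smooth muscle cells.

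Ccl3 (ENSMUSG00000000982, chr11:83647844-83649355, minus strand, GRCm38) and Ccl4 (ENSMUSG00000018930, chr11:83662584-83664683, plus strand), neighbours on chromosome 11, were the 2 CC ligands that were higher in microglia of the 12 months group. Ccl3 stood at 3237, 3292 and 2832 CPM in the 12 months libraries and at 776, 633, 466 and 259.6 CPM in the 3 months libraries. Every 12 months library lay above every 3 months library. The mean was 3120 ± 251.6 CPM (SD, n = 3) against 533.7 ± 222.4 CPM (SD, n = 4), a log2 difference of 2.60 with a standard error of 0.29 (edgeR quasi-likelihood test, Benjamini-Hochberg adjusted p = 4.67e-05). Ccl4 stood at 6348, 5679.7 and 5554 CPM at 12 months and at 2592, 1688, 1467 and 775 CPM at 3 months. The groups again did not overlap, and the log2 difference was 1.90 with a standard error of 0.30 (edgeR adjusted p = 0.0011). Without the shallow library 12 months replicate 1 the differences were 2.61 for Ccl3 and 1.87 for Ccl4.

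Ccl2 (ENSMUSG00000035385, chr11:82035571-82037453, plus strand), the main Ccr2 ligand, and Ccl12 (ENSMUSG00000035352, chr11:82101845-82103400, plus strand), a second mouse Ccr2 ligand, did not pass the test. Both lie on the same chromosome, at lower coordinates than Ccl3 and Ccl4. Ccl2 was at 794, 758 and 681 CPM in microglia at 12 months and at 1093, 603, 449.7 and 196 CPM at 3 months. Its highest and its lowest library both belonged to the 3 months group (log2 difference 0.39, standard error 0.36, edgeR adjusted p = 0.734). Ccl12 was at 657, 685 and 407 CPM at 12 months and at 398, 428, 267 and 113 CPM at 3 months. The groups overlapped by 1 library on each side (log2 difference 0.98, standard error 0.33, edgeR adjusted p = 0.171).

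Of the other genes, Ccrl2, Cxcl10, Cxcl2 and Cxcl12 were also higher in microglia at 12 months. Ccrl2 was at 320.1, 315 and 276 CPM in the 12 months libraries and at 127, 53.0, 36.1 and 49.4 CPM in the 3 months libraries, without overlap (log2 difference 2.25, standard error 0.30, edgeR adjusted p = 0.000338). Cxcl10 was at 232, 118 and 174 CPM against 89.2, 18.1, 0 and 9.14 CPM, again without overlap (log2 difference 2.71, standard error 0.52, edgeR adjusted p = 0.00548). That call rested on 659 and 65 UMIs and was lost with the Wald test of DESeq2 (adjusted p = 0.67) and with doublets kept (edgeR adjusted p = 0.0618). Without 3 months replicate 1 the difference was 4.27. A count of 0, as in 3 months replicate 3, allows up to 6.02 CPM there (3 UMIs of the total, counting error only). Cxcl2 was at 34.2, 95.5 and 32.4 CPM against 9.49, 0, 0 and 0 CPM, on 126 and 5 UMIs (log2 difference 4.21, standard error 0.69, edgeR adjusted p = 0.00124, and 0.254 with the Wald test of DESeq2). All 5 UMIs at 3 months lay in 1 cell. Without 3 months replicate 1 its group was at 0, which allows up to 4.19 to 6.02 CPM per library, and the fitted value of 8.20 depends on the prior count. Cxcl12 was at 50.9, 371 and 84.1 CPM against 19.0, 32.1, 28.1 and 36.6 CPM (log2 difference 2.24, standard error 0.51, edgeR adjusted p = 0.0237). The Cxcl12 call was lost without 3 months replicate 1 (adjusted p = 0.0971), without 3 months replicate 3 (0.0714) and with doublets kept (0.342). The difference was 1.31 without 12 months replicate 2, and the endothelial markers summed to 373.8 to 1719.07 CPM in microglia at 12 months and 309.31 to 562.16 CPM at 3 months. Of the 6 classes microglia had the lowest mean level of Cxcl12, 88.8 CPM against 3165 CPM in capillary cells. The part of endothelial RNA in the microglial Cxcl12 level was not tested. Cxcl1 with 4 UMIs and Ackr3 with 11 UMIs were too rare in microglia to be tested.

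In all, 6 of the 8 genes that entered the microglia test passed it, all 6 higher at 12 months, where 1.73% of the 6859 genes tested passed (119 genes, 97 of them higher). The 6 include Cxcl12, for which the part of endothelial RNA in microglia was not tested. The median log2 difference was 2.25 over these 8 genes and -0.01 over all genes tested. Immediate early genes, which cells switch on within minutes of a stimulus, and NF-kB target genes moved the same way: 6 of 22 immediate early genes and 10 of 16 tested NF-kB and inflammatory genes were higher and none lower, with median log2 differences of 0.63 and 1.57. Their summed levels in microglia were 34870 to 44607 CPM at 12 months and 20112 to 28236 CPM at 3 months for the immediate early genes, and 4669 to 6870 CPM against 1596 to 2387 CPM for the NF-kB list. The stress-induced transcription factor Atf3 was at 3311 ± 2080 CPM (SD, n = 3) against 495.3 ± 276 CPM (SD, n = 4), and the macrophage growth factor Csf1, the NF-kB regulator Nfkbiz and the NF-kB feedback inhibitor Tnfaip3 had log2 differences of 2.15, 2.07 and 1.99. Monocyte markers in these microglia summed to 344.05 to 552.38 CPM at 12 months and 199.29 to 248.93 CPM at 3 months, with Chil3, F10 and Ifitm6 of the 7 at 0 in all libraries. Border macrophage markers summed to 112.36 to 150.66 CPM and 142.32 to 171.58 CPM, with Cd163, F13a1 and Lyve1 of the 7 at 0. The part of these lists in the chemokine differences was not tested.

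The same contrast was seen in how many microglia carried a UMI once every cell was thinned to 1000 UMIs. Ccl3 was found in 74.3%, 73.1% and 62.3% of microglia at 12 months and in 21.0%, 21.4%, 14.3% and 12.2% at 3 months. The 2 groups stood far apart, at means of 69.9 ± 6.57% (SD, n = 3) and 17.2 ± 4.71% (SD, n = 4), and the exact permutation test gave p = 0.0286, the smallest that 35 ways of dividing the libraries allow (two-sided, adjusted p = 0.0476 over the 10 genes). Ccl4 was found in 79.4%, 75.6% and 73.1% of microglia at 12 months and in 35.2%, 39.9%, 25.4% and 28.0% at 3 months, with the same p. Capillary cells, which should lack both genes, showed Ccl3 in 1.60 ± 1.23% and 0.057 ± 0.072% of thinned cells and Ccl4 in 2.62 ± 1.63% and 0.115 ± 0.068% (SD, n = 3 and n = 4). Thinning left out 406, 12 and 57 microglia at 12 months and 2, 17, 9 and 3 at 3 months. Without thinning the means were 73.7% and 28.4% for Ccl3 and 79.4% and 42.3% for Ccl4, both with an exact adjusted p of 0.0952 over the 10 genes. Ccrl2 (21.6 ± 2.47% against 6.02 ± 3.52%), Cxcl10 (7.65% against 0.724%) and Cxcl2 (2.75% against 0.142%) also did not overlap between the groups. Ackr3 (0.523% against 0%), on few UMIs, was the sixth gene with an exact adjusted p of 0.0476. Without thinning its shares were 0.508% and 0.965%, the other way round. The genes at the smallest p share this adjusted value, and it lies under 0.05 only with Ackr3 counted among them. Ccl12 was found in 29.6%, 29.5% and 23.3% of microglia at 12 months and in 22.2%, 19.6%, 20.6% and 8.41% at 3 months. These groups did not overlap either, but the difference did not pass (exact permutation p = 0.0571, adjusted p = 0.0714), and without thinning it was -3.28 percentage points. The Ccl2 shares overlapped (30.2% against 24.4%, exact permutation p = 0.3714). Shares were compared for the 10 genes only, so how many of all genes would separate the groups in this way is not known.

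**Figure D2:**
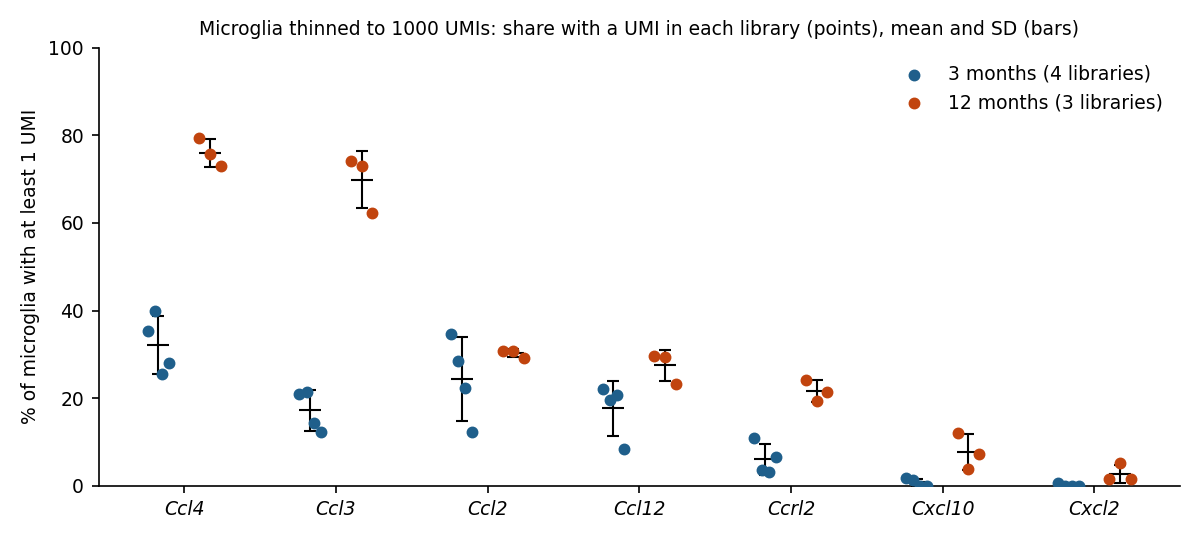
Percentage of microglia with at least 1 UMI of each gene after thinning every cell to 1000 UMIs, with 1 point per library at 12 months (n = 3) and 3 months (n = 4). For Ccl3 the 12 months libraries lie between 62.3% and 74.3% and the 3 months libraries between 12.2% and 21.4%.

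Within the microglia of a library, some pairs of CC ligands lay in the same cells more than others. Among thinned microglia with a Ccl3 UMI, 61.1% to 85.7% also had a Ccl4 UMI, against 23.7% to 61.0% of those without, and the share was higher with Ccl3 in 5 of the 5 libraries with enough such cells. Ccl12 was found in 21.4% to 41.7% of microglia with Ccl2 and in 16.7% to 24.9% of those without, higher in 6 of 6 libraries. Across these pairs, Ccl2 was found in 30.8% to 48.6% of microglia with Ccl3 and in 25.8% to 30.9% of those without. It was higher with Ccl3 in 5 of 5 libraries, and Ccl3 was higher with Ccl2 in 6 of 6. Pairs of Ccl12 with Ccl3 or Ccl4 were less even. Ccl12 was more frequent in microglia with Ccl3 in 4 of 5 libraries and in those with Ccl4 in 5 of 7, and Ccl3 in those with Ccl12 in 4 of 6. The 10% of microglia with most UMIs of a gene held 35.71% to 91.3% of Ccl3, 33.94% to 70.73% of Ccl4 and 56.57% to 91.3% of Ccl2 across libraries of both ages. Such a share is high wherever few cells hold a UMI, so it cannot separate rare detection from uneven levels.

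Outside microglia the 4 CC ligands were scarce in every class of the vessel wall, and their levels there ran close to those of microglial markers. Against capillary cells, microglia had log2 differences of 8.97 for Ccl3, 9.37 for Ccl4, 8.995 for Ccl2 and 9.65 for Ccl12, with the largest adjusted p of the 4 at 9.56e-11 (edgeR, library as a term). All 10 genes passed this test, 7 higher and 3 lower in microglia, in a comparison in which 70.2% of all genes tested passed. RNA of 1 source carried into other droplets keeps the ratios of its genes, so each level was set beside the summed 13 microglia markers in the same library. Ccl3 in capillary cells was 0.088% to 0.812% of its microglial level at 12 months and 0.049% to 0.115% at 3 months, and the microglia markers were at 0.223% to 0.648% and 0.076% to 0.145%. Ccl3 exceeded the markers in 2 of 7 libraries, Ccl4 in 1, Ccl2 in 4 and Ccl12 in 1, and levels this low in vessel cells are read here as free RNA.

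**Figure D3:**
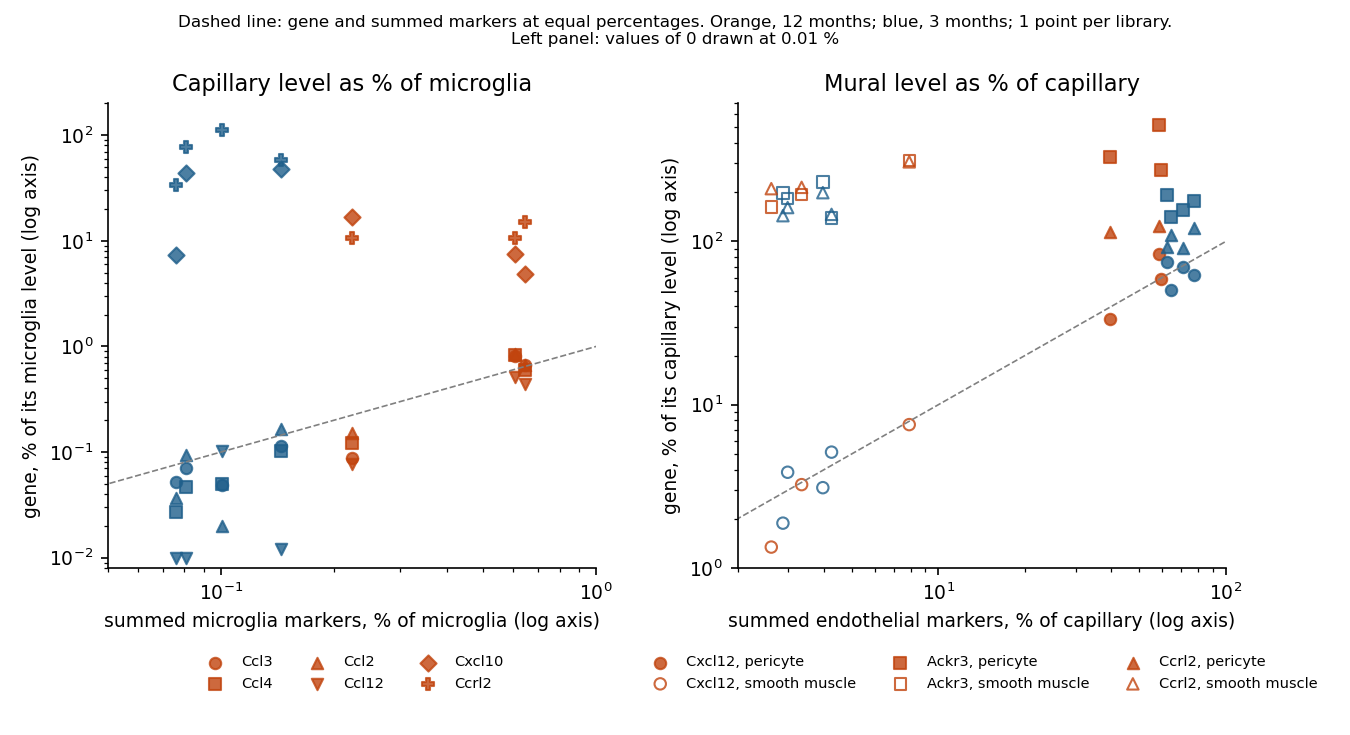
Level of a gene in one class as a percentage of its level in its source class (vertical axis) against the same percentage for the summed marker genes of the source (horizontal axis), log axes, 1 point per library. Left, CC ligands, Cxcl10 and Ccrl2 in capillary cells relative to microglia; right, Cxcl12, Ackr3 and Ccrl2 in mural cells relative to capillary cells. Points of the CC ligands lie around the dashed line of equal percentages and those of Cxcl10 and Ccrl2 lie above it; Ccrl2 at 0 in pericytes of 12 months replicate 1, and Cxcl10 of 3 months replicate 3, where microglia had none, are not drawn.

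The low CC ligand levels in vessel cells also differed by age. In capillary cells Ccl4 was at 53.0, 6.92 and 33.6 CPM in the 12 months libraries and at 0.706, 1.72, 0.736 and 0.367 CPM in the 3 months libraries, without overlap (log2 difference 5.04, standard error 0.62, edgeR adjusted p = 0.000954). Ccl3 passed likewise (log2 difference 5.28, adjusted p = 0.00143), and Ccl2 passed with 77 and 28 UMIs (log2 difference 3.15, adjusted p = 0.0272). The Ccl2 call was lost without 12 months replicate 1 (adjusted p = 0.0891), 12 months replicate 3 (0.117), 3 months replicate 3 (0.0586) or 3 months replicate 4 (0.0672). In arterial cells Ccl4 passed (log2 difference 5.26, standard error 0.81, edgeR adjusted p = 0.00669) and was lost without 12 months replicate 1 (adjusted p = 0.0549). The microglia markers summed to 98.31 to 288.85 CPM in capillary cells at 12 months and 43.47 to 66.56 CPM at 3 months, and to 93.17 to 291.89 CPM and 38.27 to 63.76 CPM in arterial cells. Leaving out every vessel cell with a UMI of a microglia marker kept the capillary differences at 5.12 for Ccl4 and 5.12 for Ccl3 (adjusted p = 0.000583 and 0.0014).

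The difference between microglia and capillary cells itself shifted with age: 7 of the 10 genes passed the class by age test, beside 3.61% of all genes tested. The age difference was smaller in microglia than in capillary cells for Ccl3 (log2 -2.39, edgeR adjusted p = 0.0033), Ccl4 (-2.83, adjusted p = 2.56e-05), Ccl2 (-2.55, adjusted p = 0.000446) and Ccl12 (-2.70, adjusted p = 0.00866). It was larger in microglia for Ccrl2 (2.19, adjusted p = 1.01e-07), Cxcl10 (1.95, adjusted p = 0.0161) and Cxcl12 (1.54, adjusted p = 0.0421). For Ccl3, Ccl4, Ccl2 and Ccl12 the capillary side is the low level read above as free RNA. At 3 months it rested on 26, 62, 28 and 7 UMIs in that order. The microglia markers in capillary cells were also higher at 12 months, and the part of free RNA in these values was not tested. The Ccl12 call was lost without 12 months replicate 3 (adjusted p = 0.155) or 3 months replicate 2 (0.0543), and its value was -4.24 without 3 months replicate 3. The Cxcl10 call was lost without 12 months replicate 3 or 3 months replicate 2, 3 or 4 (adjusted p = 0.0578 to 0.0869), and its value was 3.47 without 3 months replicate 1. The Cxcl12 call was lost without 12 months replicate 2 (value 0.81, adjusted p = 0.0577) and without 3 months replicate 1, 3 or 4 (adjusted p = 0.0656 to 0.131).

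Cxcl1, Cxcl2 and Cxcl10, the inducible CXC ligands, are clustered on chromosome 5. All 3 were read from vessel cells, and Cxcl2 and Cxcl10 from microglia too. The promoters of all 3 hold the NF-kB consensus, the sequence bound by transcription factors that switch on inflammatory genes. They are shown here, with that of Ccrl2, because these are the genes of the 10 whose windows hold the match. In the stretches below, read 5′ to 3′ on the strand of the gene from RefSeq promoter windows of GRCm38.p6, capitals mark the matches to the NF-kB consensus (10 bases, searched on both strands, overlapping matches counted once).
Cxcl1, chr5:90891159-90891199, plus strand: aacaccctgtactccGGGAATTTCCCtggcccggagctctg
Cxcl2, chr5:90903787-90903827, plus strand: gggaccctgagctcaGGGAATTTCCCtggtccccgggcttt
Cxcl10, chr5:92348968-92349063, minus strand: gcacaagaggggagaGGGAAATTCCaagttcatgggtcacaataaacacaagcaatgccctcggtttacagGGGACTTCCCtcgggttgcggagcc
Ccrl2, chr9:111057550-111057589, minus strand: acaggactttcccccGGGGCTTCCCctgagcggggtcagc

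The matches began 71 bases before the start in Cxcl1, 97 in Cxcl2, 159 and 103 in Cxcl10, and 56 in the first of 3 windows of Ccrl2. A match was present in 1480 of 32851 promoter windows of the same 300 bases (4.51%), and 55 windows (0.17%) held at least 2, as the Cxcl10 window did. Windows were matched by symbol for 8 of the 10 genes, all but Ccl4 and Ccl2, and no match was found in those of Ccl3, Ccl12, Cxcl12 and Ackr3. A match describes the letters only and was not tested as a site of binding.

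Cxcl1 (ENSMUSG00000029380, chr5:90891241-90893115, plus strand) and Cxcl2 (ENSMUSG00000058427, chr5:90903871-90905938, plus strand), both neutrophil attractants, had higher mean levels in venous than in capillary or arterial cells. Venous Cxcl1 was at 171, 279 and 96.4 CPM at 12 months and at 29.9, 50.8, 40.2 and 23.9 CPM at 3 months. All 3 libraries at 12 months were above all 4 at 3 months, and the log2 difference was 2.44 with a standard error of 0.33 (edgeR adjusted p = 0.000737). Venous Cxcl2 was at 155, 195 and 52.9 CPM against 6.81, 3.55, 1.11 and 0 CPM. At 3 months these were 34 UMIs over 4 libraries, against 857 UMIs at 12 months, and the log2 difference was 5.89 with a standard error of 0.63 (edgeR adjusted p = 9.89e-05). In venous cells with a Cxcl1 UMI after thinning, 12.0% to 27.8% also had Cxcl2, against 1.73% to 7.74% of those without, in 3 of 3 libraries with enough such cells.

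Cxcl10 (ENSMUSG00000034855, chr5:92346638-92348889, minus strand), a ligand best known as an interferon response gene, was found in venous cells at both ages. It was at 121, 101 and 72.5 CPM at 12 months and at 37.1, 64.6, 59.9 and 36.1 CPM at 3 months, where every 12 months library was higher. The log2 difference was 1.08 with a standard error of 0.25 (edgeR adjusted p = 0.0321), and the call was lost without 12 months replicate 1 (0.174), 12 months replicate 2 (0.196), 3 months replicate 3 (0.0637) or 3 months replicate 4 (0.113). The venous level was 41.6% to 394% of the microglial level, above the microglia markers in 6 of the 6 libraries in which microglia held Cxcl10.

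In the venous test 3 of 6 tested genes passed, all 3 higher at 12 months, beside 2.3% of all genes tested (238 of 10363). Of 17 tested NF-kB and inflammatory genes 11 were higher in venous cells at 12 months, and of 22 immediate early genes 10 were, with none lower in either list. The leukocyte rolling receptors Sele and Selp had log2 differences of 5.55 and 5.22, Atf3 of 3.68 and the prostaglandin synthase Ptgs2 of 2.69. The NF-kB list summed to 4910 to 8205 CPM in venous cells at 12 months and to 1948 to 2683 CPM at 3 months, and the immediate early genes to 32237 to 37508 CPM and 16747 to 21015 CPM. Their part in the chemokine difference was not tested. Of 16 tested interferon response genes 1 was higher.

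Against capillary cells of the same libraries, venous cells had more of all 3 ligands in the test over all libraries. The log2 difference was 1.65 for Cxcl1 (standard error 0.14, edgeR adjusted p = 1.33e-08), 1.90 for Cxcl2 (0.25, adjusted p = 3.64e-06, and 0.0607 with the Wald test of DESeq2) and 2.71 for Cxcl10 (0.11, adjusted p = 2.77e-13). Cxcl2 went the other way in 3 months replicates 3 and 4, at 1.11 and 0 CPM in venous and 2.16 and 0.367 CPM in capillary cells. In this comparison 6 of 7 tested genes passed, 3 higher and 3 lower, beside 41.9% of all genes tested. The decoy receptor Ackr1, a marker of venules, had a log2 difference of 6.11, and Ptgs2 of 3.90, Gpr182 of 3.65 and Sele of 3.50. Of the tested NF-kB list, 12 of 15 genes were higher and 1 lower in venous cells.

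Capillary cells held lower levels with wide spread between libraries. Capillary Cxcl1 was at 44.1, 78.7 and 15.7 CPM at 12 months and at 17.8, 21.6, 17.3 and 8.31 CPM at 3 months. The groups overlapped, and the difference did not pass (log2 1.59, standard error 0.44, edgeR adjusted p = 0.0688). Capillary Cxcl2 was at 28.4, 58.5 and 9.46 CPM against 0.403, 2.30, 2.16 and 0.367 CPM, without overlap (log2 difference 4.58, standard error 0.63, edgeR adjusted p = 0.00171). Capillary Cxcl10 was at 17.4, 19.7 and 8.50 CPM against 6.56, 8.61, 12.6 and 3.97 CPM, and the groups overlapped (log2 difference 0.97, edgeR adjusted p = 0.195). In capillary cells 4 of 9 tested genes passed, namely Ccl3, Ccl4, Ccl2 and Cxcl2, all higher at 12 months, beside 4.15% of all genes tested (506 of 12206). Of these, the low levels of Ccl3, Ccl4 and Ccl2 in capillary cells are read above as free RNA. Of the 22 immediate early genes 14 were higher at 12 months, with summed levels of 25933 to 30476 CPM against 11740 to 13436 CPM, and 4 of 15 tested NF-kB genes were. Atf3 was at 932.8 ± 672.4 CPM (SD, n = 3) against 78.41 ± 10.19 CPM (SD, n = 4).

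Arterial cells had the least of these ligands among the endothelial segments. Arterial Cxcl1 was at 15.6, 16.1 and 9.24 CPM at 12 months and at 8.70, 24.1, 11.4 and 8.35 CPM at 3 months, with overlapping groups (log2 difference 0.02, standard error 0.39, edgeR adjusted p = 0.994). Relative to capillary cells, Cxcl1 was lower by a log2 difference of -0.93 (adjusted p = 0.00247, and -0.47 without 12 months replicate 2) and Cxcl10 by -1.99 (adjusted p = 1.14e-05). With Cxcl12 and Ackr3, 4 of 5 tested genes passed and all 4 were lower in arterial cells, beside 38.7% of all genes tested. In the age test of arterial cells 1 of 5 tested genes passed, Ccl4, beside 0.636% of all genes tested (65 of 10217). The low Ccl4 level in vessel cells is read above as free RNA. Of 21 tested immediate early genes 6 were higher in arterial cells at 12 months.

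The age difference itself differed between segments. In the arterial against capillary test 3 of 9 tested genes passed, beside 0.979% of all genes tested: Cxcl1 (log2 -1.60, standard error 0.30, edgeR adjusted p = 0.00729), Cxcl2 (-2.80, standard error 0.66, adjusted p = 0.041) and Cxcl12 (-0.88, standard error 0.17, adjusted p = 0.0094). The Cxcl1 call was lost without 12 months replicate 2 (value -0.91, adjusted p = 0.345) or 3 months replicate 2 (0.0876), and the Cxcl12 call without 3 months replicate 4 (0.0509). The Cxcl2 call, on 26 and 13 arterial UMIs, was lost without 12 months replicate 2 or 3 months replicate 1, 2 or 4 (adjusted p = 0.0552 to 0.808). Its value was -1.12 without 3 months replicate 2, and its log2 value was 0.08 once vessel cells with a microglia marker UMI were left out. In the venous against capillary test 1 of 9 tested genes passed, beside 3.56% of all genes tested: Cxcl1, with a larger age difference in venous cells (log2 0.88, standard error 0.16, adjusted p = 0.00137).

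Cxcl12 (ENSMUSG00000061353, chr6:117168535-117181367, plus strand), the ligand shared by Cxcr4 and Ackr3, was an endothelial gene with a steep zonation. Its level in capillary cells was 3543, 2909 and 4194 CPM at 12 months and 3955, 2366, 2196 and 2997 CPM at 3 months. The groups overlapped (log2 difference 0.40, standard error 0.22, edgeR adjusted p = 0.39). In order, the classes had mean levels over the 7 libraries of 3165 ± 763 CPM in capillary cells, 1916 ± 599 CPM in pericytes, 1745 ± 409 CPM in arterial cells, 261 ± 67.9 CPM in venous cells, 117 ± 70.4 CPM in smooth muscle cells and 88.8 ± 126 CPM in microglia (SD, n = 7). The libraries of arterial and venous cells did not overlap, and the libraries of each other pair of neighbours in that order did. Venous cells differed from capillary cells by a log2 value of -3.55 (standard error 0.11, edgeR adjusted p = 2.12e-14) and arterial cells by -0.84 (standard error 0.14, adjusted p = 4.72e-05). After thinning, 77.1% of capillary cells had a Cxcl12 UMI in the median library, against 20.0% of venous cells.

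Cxcl12 also varied inside the capillary and arterial classes, which the clustering split further without using the gene. Of 4 large capillary clusters, the 4875 cells led by Cyp2e1, Aldh1a1 and Car4 had 1244 ± 337 CPM (SD, n = 7). Their highest library (1897 CPM) was below the lowest library (2649 CPM) of the other 3 clusters, whose means were 4011, 4868 and 4838 CPM. The same Cyp2e1 cluster had Cxcl1 at 82.9 ± 58.5 CPM (SD, n = 3) at 12 months and 24.0 ± 9.33 CPM (SD, n = 4) at 3 months. The other 3 clusters had means of 15.7 to 19.2 CPM at 12 months and 2.96 to 17.7 CPM at 3 months, and no test was run between clusters. In the Cyp2e1 cluster 7 of 10 venous markers were raised beside 7 of 8 capillary markers, and at resolution 1.0 a cluster of 2258 cells led by Cyp2e1 and Aldh1a1 scored alike for both classes. Among arterial clusters, the cells led by Fbln5, Bgn and Mgp, genes of large artery walls, had 172 ± 92.7 CPM of Cxcl12, and those led by Gkn3 and Vegfc had 1834 ± 386 CPM (SD, n = 7). The cluster led by S100a6 and Ccn3 was at 1810 ± 102 CPM (SD, n = 3) at 12 months and 2573 ± 306 CPM (SD, n = 4) at 3 months, without overlap. For arterial cells as a whole Cxcl12 was at 953, 1486 and 1826 CPM against 2121, 1924, 1801 and 2102 CPM, with overlap (log2 difference -0.43, edgeR adjusted p = 0.74). The Fbln5 cluster made up 7.53% to 33.97% of arterial cells in the 12 months libraries and 9.57% to 13.79% in the 3 months libraries, and its part in the arterial level was not tested.

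Cxcl12 in pericytes ran beside endothelial markers. Pericytes had 2089, 2434 and 1407 CPM at 12 months and 2961, 1469, 1540.4 and 1509 CPM at 3 months, and the age test was far from its threshold (log2 difference 0.04, standard error 0.29, edgeR adjusted p = 0.982). The median over libraries was 62.1% of the capillary level, against 62.2% for the 12 endothelial markers, and Cxcl12 exceeded the markers in 2 of 7 libraries. In smooth muscle cells both medians were low, 3.24% for Cxcl12 and 3.34% for the markers. Pericytes had more Cxcl12 than smooth muscle cells (log2 difference 3.75, standard error 0.17, edgeR adjusted p = 8.16e-15), and the endothelial markers differed in the same direction, at 10746 to 18068 CPM in pericytes and 570.41 to 1925.29 CPM in smooth muscle cells. A level of the pericytes' own and endothelial RNA in the same droplets cannot be told apart here.

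Ackr3 (ENSMUSG00000044337, chr1:90203980-90216751, plus strand), the scavenging receptor for Cxcl12, had its highest mean levels among the 6 named classes in the mural cells. Pericytes were at 106, 172 and 272 CPM at 12 months and at 182, 145, 152 and 135 CPM at 3 months, and smooth muscle cells at 63.4, 104 and 159.7 CPM against 133, 151, 226 and 189 CPM. The libraries of the 2 ages overlapped in both classes, and neither difference passed (edgeR adjusted p = 0.522 and 0.568). Relative to capillary cells of the same library, the level was 141% to 516% in pericytes and 139% to 312% in smooth muscle cells, above the endothelial markers in 7 of 7 libraries for each. Pericytes and smooth muscle cells did not differ beyond their spread (log2 -0.21, standard error 0.16, edgeR adjusted p = 0.298), and the sign turned to 0.04 without 3 months replicate 3 and 0.02 without 3 months replicate 4. Microglia held 11 Ackr3 UMIs in all.

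In every endothelial segment Ackr3 was lower at 12 months without passing the test. Capillary cells were at 39.0, 33.4 and 82.1 CPM at 12 months and at 95.1, 82.7, 98.1 and 95.6 CPM at 3 months, arterial cells at 22.9, 24.6 and 62.4 CPM against 82.6, 64.5, 75.1 and 82.1 CPM, and venous cells at 16.97, 25.8 and 51.3 CPM against 54.5, 73.7, 71.7 and 90.1 CPM. All 3 segments showed no overlap between the ages, with 12 months replicate 3 the closest to the 3 months libraries. The segments come from the same libraries and are not separate observations. For levels, as for shares, how many of all genes separate the ages in this way is not given here. The log2 differences were -0.74 in capillary, -0.95 in arterial and -1.08 in venous cells (edgeR adjusted p = 0.146, 0.239 and 0.0729). Without 12 months replicate 3 they were -1.26, -1.62 and -1.60 with adjusted p of 0.00215, 0.0129 and 0.00835. Without 3 months replicate 1 the venous adjusted p was 0.00998. In each case the library left out was the one of its group closest to the other group, and its removal widens the gap. After thinning, 4.95 ± 2.28% of endothelial cells at 12 months (SD, n = 3) and 8.89 ± 0.373% at 3 months (SD, n = 4) had an Ackr3 UMI, without overlap (exact permutation p = 0.0286, adjusted p = 0.0571 over the 10 genes). Without thinning the shares were 10.03% and 34.4%. Among endothelial segments, Ackr3 was lower than in capillary cells by log2 -0.34 in arterial cells (edgeR adjusted p = 0.000254, and 0.489 at cluster resolution 1.0) and by -0.40 in venous cells (adjusted p = 0.000992).

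Ccrl2 (ENSMUSG00000043953, chr9:111054486-111057519, minus strand), which binds chemerin, was the most evenly spread of the 10 genes. Capillary cells were at 33.9, 33.7 and 41.9 CPM at 12 months and at 42.8, 31.0, 40.3 and 38.5 CPM at 3 months. The groups overlapped (log2 difference 0.04, standard error 0.15, edgeR adjusted p = 0.929), and arterial and venous differences of -0.15 and 0.11 did not pass either. The class means over 7 libraries ran from 168 ± 131 CPM in microglia through 73.2 ± 19.2 CPM in smooth muscle cells to 29.9 ± 4.59 CPM in venous cells (SD, n = 7), and every pair of neighbours in the order of the 6 classes overlapped. The capillary level was 10.6% to 112% of the microglial level, above the microglia markers in 7 of 7 libraries. Smooth muscle cells had 71.3, 103 and 89.8 CPM at 12 months against 62.6, 49.9, 80.1 and 55.3 CPM, with overlap (edgeR adjusted p = 0.643). Pericytes had less Ccrl2 than smooth muscle cells (log2 -1.22, standard error 0.17, edgeR adjusted p = 1.15e-06). With Cxcl12, 2 of 3 tested genes passed the comparison of pericytes and smooth muscle cells, 1 in each direction, beside 51.1% of all genes tested. Venous cells had slightly less Ccrl2 than capillary cells (log2 -0.26, edgeR adjusted p = 0.0126), a call lost without 3 months replicate 4 (0.075) and without vessel cells that held a microglia marker UMI (0.237).

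In mural cells no age difference of the 10 genes passed the edgeR test. Of 4 tested genes in pericytes 0 passed, beside 1.18% of all genes tested (99 of 8359, with 1023 genes at an unadjusted p under 0.05), and of 3 in smooth muscle cells 0 passed, beside 0.144% (12 of 8318, with 580 at an unadjusted p under 0.05). Atf3 was higher at 12 months in both, by log2 2.28 and 2.57, and 5 of 20 and 2 of 20 tested immediate early genes were higher. DESeq2 called 0 of the genes in either class.

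Of the other genes of the chemokine system, few passed an age test. Of 16 further CC chemokines, 4 could be tested in microglia (Ccl6, Ccl7, Ccl9 and Ccl25) and 0 passed with edgeR, Ccl7 being the largest at a log2 difference of 1.58 (adjusted p = 0.265). Of 3 signalling receptors tested there, Ccr1 was lower at 12 months (log2 -2.16, standard error 0.46, adjusted p = 0.0155). Both further atypical receptors tested in capillary cells, Ackr1 and Gpr182, were higher at 12 months, at 17.1 and 9.44 CPM. Their levels were higher in venous than in capillary cells, and the part of venous RNA in the capillary values was not tested. Of 2 further atypical receptors tested in venous cells, 1 was higher at 12 months. In the venous against capillary class by age test, 2 of 2 had a smaller age difference in venous cells. By class, the fractalkine receptor Cx3cr1 and the ligands Ccl9 and Ccl6 had log2 differences of 9.95, 9.16 and 8.92 in microglia over capillary cells. Interferon response genes went the other way, with 15 of 16 lower in microglia.

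Over 100 sums of 17 classes and libraries, the genes whose levels ran most alike were named for each gene by Pearson's r of log2(CPM + 1), as a description, since sums of 1 class share their cells and sums of 1 library their depth. Ccl3 ran most like Ccl4 (r = 0.910), Tnf (0.869) and Fcgr3 (0.865), and Ccl4 like Ccl3, Tyrobp (0.873) and Fcgr3 (0.845). Ccl2 ran with Ccl12 (0.897), Bcl2a1a (0.871) and Ptafr (0.864), and Ccl12 with Bcl2a1a (0.940), Lrrc25 (0.932) and Clec4a2 (0.931). Cxcl2 was closest to Nfkbiz (0.632), Cxcl10 (0.614) and the leukocyte adhesion molecule Icam1 (0.607), Cxcl10 to Cd14 (0.687), Icam1 (0.666) and Nfkbia (0.660), and Cxcl1 to Wnt5a (0.735), Apod (0.713) and Stard13 (0.712). Cxcl12 ran with Rgs12 (0.907), Efr3b (0.898) and Vwa1 (0.897), Ackr3 with Sparcl1 (0.845), Lamb2 (0.809) and Bcam (0.809), and Ccrl2 with Mertk (0.774), Camk1 (0.755) and Nagpa (0.751).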

How the data were processed

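The deposited matrices hold UMI counts per gene and barcode, which the authors made with Cell Ranger against mm10, per the file headers and the submitters' processing notes; Seurat is named there too. Barcodes with at least 500 genes and at most 15% mitochondrial UMIs were kept, and the barcodes with the highest doublet scores (Scrublet in scanpy 1.11.5, 0.8% per 1000 cells) were removed. The cells were clustered with Seurat 5.3.0 (2000 variable features, 30 components, resolution 0.5) and named from marker lists by a scoring rule that needs at least 3 raised markers. The 10 genes and the pathway lists were kept out of the variable features and of naming. The genes, lists and tests were chosen with earlier results of these data known.

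Counts were summed per library and class (at least 20 cells) and tested in R 4.3.3 by the quasi-likelihood test of edgeR 4.0.16, with TMM factors, the filterByExpr filter and p adjusted after Benjamini and Hochberg over all genes tested (threshold 0.05). Age tests compared 3 with 4 libraries. Class tests had the library as a term, and class by age terms were fitted on the same sums. Shares of cells were compared by permuting libraries exactly, two-sided. The fits were tested on simulated data. Named besides the 10 genes are up to 4 pathway genes per comparison that passed, reached 50 CPM and had the largest change, and the 3 genes most alike in pattern; 1 pathway gene that met the rule is not reported here. Ccl7, Ccr1, Ackr1 and Gpr182 in capillary cells, the capillary clusters and the vessel cells left out for microglia marker UMIs were chosen after values were seen. Alternatives were DESeq2 1.42.0 (size factors, Wald test), no filter, 1000 genes per cell, resolution 1.0, doublets kept, replicate or library terms, other thinning and leaving out each library.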

Additional observations from a re-analysis of the deposited data

Results flagged for a closer look

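Among 27 groups of 4 libraries checked for a value far from the rest, 1 stood out, where chance picks out about 1 in 20: Cxcl12 in pericytes of 3 months replicate 1, at 2961 CPM, with the other 3 libraries between 1469 and 1540.4 CPM and a gap of 0.952 of the whole range.

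In 11 cases the log2 age difference (12 months over 3 months) of a gene differed between a class and capillary cells, by the class by age term of the edgeR quasi-likelihood test. In arterial cells the difference was smaller than in capillary cells for Cxcl1 (-1.60, adjusted p = 0.00729), Cxcl2 (-2.80, adjusted p = 0.041) and Cxcl12 (-0.88, adjusted p = 0.0094). In venous cells it was larger for Cxcl1 (0.88, adjusted p = 0.00137). In microglia it was smaller for Ccl3 (-2.39, adjusted p = 0.0033), Ccl4 (-2.83, adjusted p = 2.56e-05), Ccl2 (-2.55, adjusted p = 0.000446) and Ccl12 (-2.70, adjusted p = 0.00866), whose capillary levels ran close to those of the microglia markers. In microglia it was larger for Cxcl10 (1.95, adjusted p = 0.0161), Cxcl12 (1.54, adjusted p = 0.0421) and Ccrl2 (2.19, adjusted p = 1.01e-07).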

How the results depend on the processing

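With size factors of DESeq2, 66 of 67 values kept their side of the threshold. Leaving out each library in turn gave 549 values: 457 kept side and direction, 71 lost and 6 gained a call, and 15 changed sign. Over these the genes called by age ran from 73 to 131 in microglia, 282 to 943 in capillary, 19 to 127 in arterial, 90 to 456 in venous, 11 to 287 in pericyte and 3 to 27 in smooth muscle cells. The class by age calls ran from 34 to 135 (arterial), 103 to 597 (venous) and 258 to 528 (microglia). Of the 10 genes, 0 to 2 were called in arterial, 2 to 6 in venous, 0 to 1 in pericyte and 0 to 1 in smooth muscle cells, and 1 to 3 in the arterial and 1 to 3 in the venous class by age test. No share could be called with 6 libraries (0 to 0 in microglia), since that design cannot reach 0.05. Signs turned for Cxcl12 in pericytes (-0.20 to 0.40) and smooth muscle cells (-0.089 to 1.06), Ackr3 in pericytes over smooth muscle cells (-0.346 to 0.043), the class by age values of Cxcl10 in venous cells (-0.20 to 0.33) and Cxcl2 in microglia (-0.67 to 7.61), and the endothelial Cxcl12 share (-2.23 to 8.69 percentage points).

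The Wald test of DESeq2 called 112 genes by age in arterial cells and 41 in pericytes (65 and 99 in edgeR), and 70, 230 and 175 in the arterial, venous and microglia class by age tests (107, 417 and 414). Of the 10 genes it called 3 in microglia (6 in edgeR), 1 in the arterial (3) and 3 in the microglia class by age test (7). At 1000 genes per cell 18 pericyte genes and 266 microglia class by age genes were called, 2 of the 10 genes in the venous class by age test, and Cxcl10 there turned to -0.28 from 0.05. Resolution 1.0 gave 23 arterial and 351 pericyte genes, and of the 10 genes 0 in arterial cells (1), 1 in pericytes (0), 1 and 2 in the arterial and venous class by age tests (3 and 1) and 2 for arterial over capillary cells (4). With doublets kept 71 microglia, 53 pericyte, 5 smooth muscle and 246 microglia class by age genes were called, 0 of the 10 genes in arterial cells and 4 in the microglia class by age test, and Cxcl10 in the venous one was -0.17. Without a filter 319 arterial, 1140 capillary, 306 microglia, 227 pericyte, 80 smooth muscle, 680 venous and 243 arterial class by age genes were called. Of the 10 genes these were 5 arterial, 8 capillary, 3 pericyte, 2 smooth muscle, 7 venous, 3 in the venous class by age test and 4 for pericytes over smooth muscle cells. Leaving out vessel cells with a microglia marker UMI, chosen after seeing the data, gave 8 pericyte, 3 smooth muscle and 248 venous class by age genes, and 0.082 for Cxcl2 in the arterial class by age test. Shares not thinned gave 0 called genes in microglia and 6 in endothelial cells (6 and 0 thinned), with differences of -0.46 for Ackr3, -3.28 for Ccl12 and -1.64 for Ccl2 in microglia and -5.59 for Cxcl12 in endothelial cells; thinned to 2000 UMIs, 7 endothelial genes were called and Cxcl12 was -5.98. The cause was not tested where a value changed.

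The replicate numbers did not pair the libraries: the deviations of same-numbered libraries correlated at 0.035, 0.323 and -0.065 over 8294 genes. With a replicate block 35 arterial, 170 capillary, 48 microglia and 65 pericyte genes were called by age, Cxcl12 in pericytes was -0.014, and the calls of Cxcl10 in microglia and venous cells and of Ccl2 in capillary cells were lost (adjusted p = 0.0526, 0.0936 and 0.189). With no replicate block, here no library term, 1819 and 2089 genes (3980 and 4627 with it) and 2 and 3 of the 10 genes (4 and 6) were called in arterial and venous over capillary cells.

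Low UMI numbers limit Cxcl1, Cxcl2 and Ackr3 in microglia, Cxcl2 in arterial and mural cells and the CC ligands in vessel cells. Pericytes numbered 33 in 1 library.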

Other observations

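The 301 unnamed cells led by Lyz2, Plac8, Cybb and H2-Ab1 held CC and CXC ligands side by side. In the 12 months libraries Ccl3 was at 3341, 381 and 2017 CPM there, 11.6% to 103% of the microglial level, and microglia markers were at 8.91% to 72.6%. Cxcl2 was at 1326, 390.3 and 619 CPM in these cells, 409% to 3873% of the microglial level, and Cxcl10 at 562, 487 and 500.4 CPM, 242% to 413%. In the 3 months libraries the cluster had 10 to 13 cells, and Cxcl10 was at 0 in all 4. Ccl3 was at 823, 917, 530 and 651 CPM in these few cells, against 776, 633, 466 and 259.6 CPM in microglia of the same libraries. T and NK cells held Ccl4 at 848, 581 and 3598 CPM at 12 months and at 57.1, 1089.6, 484 and 53.7 CPM at 3 months. Of these 7 libraries, 4 had 15 to 19 T and NK cells, under the minimum of 20, and the 1089.6 CPM came from 2 cells.

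Ackr3 was also read from 2 unnamed vessel clusters. In the 1336 endothelial cells led by Plvap and Esm1, genes of fenestrated and growing vessels, it was at 84.0, 58.2 and 146 CPM at 12 months and at 164, 224, 240.4 and 254 CPM at 3 months, without overlap. In the cells led by Rgs5 and Olfr558 it was at 208, 155 and 191 CPM against 205, 147, 192 and 169 CPM, with overlap, and 3 months replicates 1 and 4 had 13 and 17 of these cells. Capillary cells with a Cxcl10 UMI had more of the summed interferon response list than those without in 7 of 7 libraries, and venous cells in 6 of 7. Some were near ties, as in capillary cells of 12 months replicate 2 (1814.0 against 1800.5 CPM) and venous cells of 3 months replicate 1 (2074.6 against 2063.1 CPM). The widest were capillary cells of 3 months replicate 3 (2437.2 against 1675.0 CPM) and venous cells of 12 months replicate 2 (2177.6 against 1401.7 CPM). Among the 260 cells led by Dcn, Col3a1 and Ccl19, Cxcl1 was at 134, 166 and 12.6 CPM at 12 months and at 129, 102, 103 and 147 CPM at 3 months, with 18 of these cells in each of 12 months replicates 2 and 3.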
